A study of Mus musculus with 12 samples.

Results

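The lysyl oxidase family of the mouse has 5 genes, Lox, Loxl1, Loxl2, Loxl3 and Loxl4, and these were taken by symbol from the 54352 gene rows of a count table from cultured adventitial fibroblasts. Lysyl oxidases are secreted, copper-dependent amine oxidases that oxidise lysines of collagens and elastin to reactive aldehydes, and these aldehydes condense into the crosslinks that make a matrix insoluble and stiff. Lox and Loxl1 are made as proenzymes with a propeptide and are known for elastic fibre and fibrillar collagen crosslinking in the aortic wall, where loss of Lox in mice leads to aneurysm and rupture. Loxl2, Loxl3 and Loxl4 carry scavenger receptor cysteine-rich domains in place of that propeptide, and Loxl2 is known to act on the collagen IV of basement membranes. TGFβ, a cytokine that drives fibroblasts to make matrix, is a known inducer of lysyl oxidases.

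The cells were primary adventitial fibroblasts grown out of pieces of the outer coat of the ascending or the descending aorta of wild-type C57Bl/6 mice. The labels give an age of 14 weeks and 1 passage for every sample, and the study's own text gives other values for both in places. Cultures from each site received either solute alone (control) or mouse TGFβ at 10 ng/mL for 48 h, so that 12 libraries made from total RNA fell into 4 groups of 3, all labelled batch 1. All groups share genotype, medium and expansion on plastic, and nothing in the labels says that the 3 cultures of a group came from separate animals, so p-values measure only the spread between these cultures. The comparisons ask how each gene of the family responded to TGFβ at each site, whether it differed between sites, and whether the response itself differed between sites. The totals ran from 16250126 to 23892943 counts per library. One library, descending control replicate 3, stood apart: its total was the lowest, it detected 13031 genes where the rest detected 19337 to 20931, and mitochondrial genes took 11.02% of its reads where they took 0.703% to 1.03% elsewhere. The main tests of the 5 genes that use it are given with and without it. DESeq2, its size factors, other filters on low counts, a replicate block and 1 fit of all 12 libraries were run only with it. The fibroblast markers Pdgfra, Dcn, Lum, Col1a1, Thy1, Pi16 and Dpt summed to 6490 to 15020 normalized CPM (counts scaled to a common library size with edgeR's TMM factors) in the 12 libraries, whereas the smooth muscle markers Myh11, Cnn1, Smtn, Myocd and Lmod1 summed to 137 to 343. Most of the fibroblast sum was Col1a1, which rose with TGFβ, and the other 6 markers fell with it in ascending cultures and, without control replicate 3, in descending ones (with the 6 descending libraries, 4 of them fell). Of the endothelial markers, Pecam1 and Cdh5 had at most 6 counts in any library, Vwf at most 21, Kdr at most 34 and Tek 69 to 612.

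The family members lie on 5 chromosomes (GRCm38, GENCODE vM21). Lox spans chr18:52516067-52529867 on the minus strand, Loxl1 chr9:58287738-58313186 on the minus strand, Loxl2 chr14:69609068-69695834 on the plus strand, Loxl3 chr6:83034173-83052562 on the plus strand and Loxl4 chr19:42593982-42612813 on the minus strand. Their exons together cover 4778, 3297, 5405, 4603 and 4213 bases, respectively. No stretch of 50 bases was shared within the family, so reads of that length cannot be moved from one member to another. Lox, Loxl1 and Loxl4 shared no such stretch with any other gene. Loxl2 shared 45.0% of its 50-base stretches with other genes, nearly all with the pseudogene Gm21451 (chr14:69390854-69480287), which itself stood at 2.00 to 9.35 normalized CPM. Loxl3 shared 8.54%, all with Htra2, a gene on the opposite strand whose exons overlap 11.6% of those of Loxl3 and which held 8224 counts over the 12 libraries. How the counting treated strand and reads with several matches is not given in the sources used here, so the levels of Loxl2 and Loxl3 carry that uncertainty.

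Of the 5 genes, Loxl4 had an entry in the RefSeq promoter table (GRCm38.p6), and Lox, Loxl1, Loxl2 and Loxl3 did not. The 250 bases before its start, chr19:42612807-42613056 read on the minus strand, are counted from the RefSeq start, which lies slightly inside the GENCODE span of the gene, and are shown as the only family promoter in that table. Capitals mark 3 copies of the GC box GGGCGG, which lie 89, 56 and 15 bases before the start, and 1 copy of CAGAC, the reverse complement of the SMAD box GTCTG, which lies 226 bases before it.

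Loxl4 promoter: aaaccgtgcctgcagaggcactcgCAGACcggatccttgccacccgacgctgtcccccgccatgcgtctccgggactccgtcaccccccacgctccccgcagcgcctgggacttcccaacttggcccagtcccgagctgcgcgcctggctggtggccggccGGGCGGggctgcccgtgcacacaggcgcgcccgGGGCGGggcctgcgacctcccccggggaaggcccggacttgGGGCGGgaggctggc

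The stretch was 76% G and C, against a median of 52.4% over 32851 mouse promoters of the same length. Searched on both strands, GGGCGG occurred in 32.7% of those promoters and GTCTG in 42.2%. The letters of an AP-1 site (TGANTCA, in 6.75% of promoters), of a hypoxia response core (ACGTG, in 16.6%) and of a TATA-like stretch (ATAAAA, in 17.0%) did not occur in this window of Loxl4.

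Levels of different genes were compared as normalized CPM per kb of exon length. Lox was the most abundant member in every library. In ascending control cultures Lox stood at 959 ± 8.004 CPM per kb (SD, n = 3), Loxl1 at 114 ± 3.498, Loxl2 at 40.0 ± 0.739, Loxl3 at 33.3 ± 1.76 and Loxl4 at 12.3 ± 0.157. With TGFβ the ascending order was Lox at 1985 ± 7.89 CPM per kb, Loxl1 at 208 ± 4.97, Loxl2 at 157 ± 2.33, Loxl3 at 137 ± 2.36 and Loxl4 at 31.1 ± 1.30. With these lengths no neighbours in the ascending order overlapped in their library values in either condition. In descending cultures with TGFβ Lox stood at 2391 ± 70.4 CPM per kb, Loxl1 at 194 ± 8.03, Loxl2 at 188 ± 0.889, Loxl3 at 134 ± 4.79 and Loxl4 at 28.6 ± 1.06. There Loxl1 and Loxl2 overlapped, with 187, 203 and 193 CPM per kb for Loxl1 and 188, 189 and 188 for Loxl2. In descending control replicates 1 and 2, Lox stood at 1069 and 1134 CPM per kb, Loxl1 at 114 and 103, Loxl3 at 48.9 and 48.0, Loxl2 at 34.7 and 37.5 and Loxl4 at 9.29 and 9.40. Descending control replicate 3 held 1825 CPM per kb of Lox, 49.5 of Loxl1, 46.8 of Loxl2, 35.6 of Loxl3 and 6.24 of Loxl4, so that Lox was higher and Loxl1 lower there than in its fellow cultures. The place of Loxl2 in this order depended on the length used. When all its counts were divided by its 2972 bases not shared with another gene, its level per kb was 1.82 times as high. That length would apply only if no read from shared sequence was counted, which is not known. With that length, Loxl2 passed Loxl1 under TGFβ, at 285 CPM per kb in ascending and 342 in descending cultures, and stayed below it in ascending controls, at 72.8. Whether it ranked above Loxl3 in descending control replicates 1 and 2 depended on the length too.

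**Figure D1:**
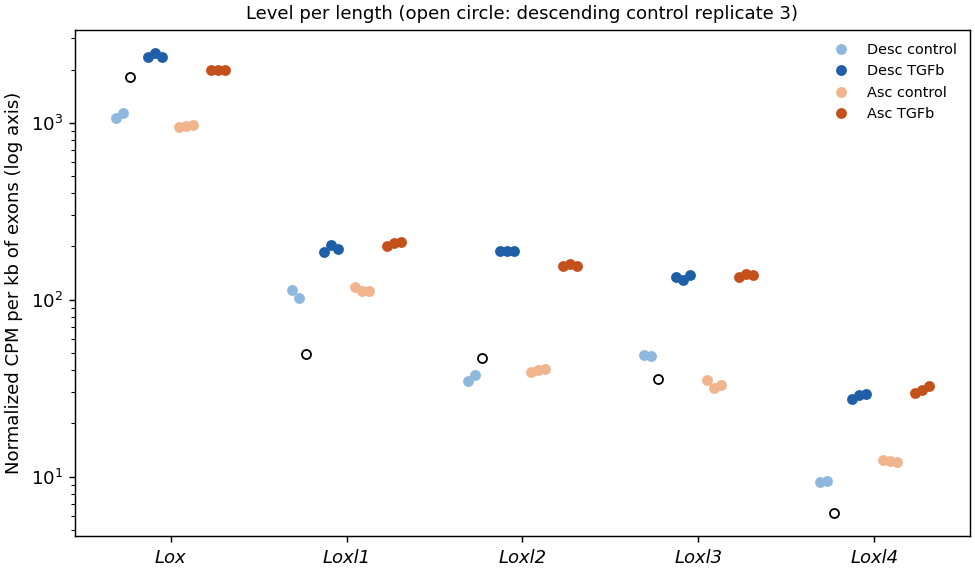
Level of each lysyl oxidase gene per length. The vertical log axis gives normalized CPM per kb of exons, and each point is 1 library, coloured by site and treatment. Lox lies well above the other members in all 12 libraries, Loxl4 lies lowest, and the open circles mark descending control replicate 3.

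Lox alone made up most of the family's summed level per kb. Its share was 82.8% ± 0.418 (SD, n = 3) in ascending controls and 78.8% ± 0.340 with TGFβ. In descending cultures it was 83.8% and 85.2% in control replicates 1 and 2, 93.0% in control replicate 3 and 81.4% ± 0.377 with TGFβ. The share of Loxl2 was higher with TGFβ and went from 3.45% ± 0.0521 to 6.23% ± 0.0941 in ascending cultures. In descending cultures this share was 2.72% and 2.82% in control replicates 1 and 2, 2.38% in control replicate 3 and 6.41% ± 0.131 with TGFβ. Lox also ranked among the most counted genes of the cells: it took 0.485% to 1.11% of all counts and held rank 4 to 11 in the 11 libraries other than descending control replicate 3, where it held rank 10. Loxl1 held ranks 176 to 440 in those 11 libraries, Loxl2 114 to 906, Loxl3 206 to 1224 and Loxl4 1359 to 4548. In descending control replicate 3 they held ranks 1212, 739, 1202 and 5552, respectively.

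All 5 genes rose with TGFβ in ascending fibroblasts, by 1.81-fold for Loxl1 to 4.09-fold for Loxl3. In descending fibroblasts all 5 were also higher with TGFβ, but with the 6 libraries only Loxl2, Loxl3 and Loxl4 passed the test, and without descending control replicate 3 all 5 passed it. DESeq2 called all 5 on the same 6 libraries, with an adjusted p of 0.0294 for Lox and 0.0115 for Loxl1. The test was edgeR's quasi-likelihood F-test with Benjamini-Hochberg adjustment over all genes tested and an adjusted p under 0.05. Over all genes, 28.2% rose and 27.6% fell with TGFβ in ascending cultures. In descending cultures 3.59% rose and 4.48% fell with the 6 libraries, and 26.6% rose and 26.3% fell without control replicate 3. Since these are bulk libraries, fewer cells of a type and less RNA per cell cannot be told apart.

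Lox encodes the founding member, the main crosslinking enzyme of the aortic wall. In ascending cultures it stood at 4549, 4577 and 4625 normalized CPM in the controls and at 9528, 9455 and 9475 with TGFβ. Descending cultures held 5106, 5421 and 8718 in control replicates 1 to 3 and at 11254, 11814 and 11212 with TGFβ. The treated libraries lay above all controls at both sites, and descending control replicate 3 lay between its fellows and the treated libraries. The raw count of Lox in that library, 126351, was between those of the other descending controls, 131178 and 124927, while its library total was lower. The log2 fold change with TGFβ was 1.04 (SE 0.02, adjusted p = 1.61e-16) in ascending cultures. The descending change was 0.82 (SE 0.22, adjusted p = 0.0879) with the 6 libraries and 1.12 (SE 0.05, adjusted p = 1.45e-18) without control replicate 3.

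Loxl1, which is known for homeostasis of elastic fibres, had the smallest response of the family in ascending cultures. It stood there at 390, 369 and 371 normalized CPM in controls and at 666, 689 and 698 with TGFβ, a log2 fold change of 0.86 (SE 0.03, adjusted p = 3.87e-13). The descending cultures held 376, 339 and 163 in control replicates 1 to 3 and at 616, 668.5 and 636 with TGFβ. No treated library overlapped a control, and control replicate 3 was the lowest of the 6 libraries. The descending log2 fold change was 1.12 (SE 0.31, adjusted p = 0.0906) with the 6 libraries and 0.84 (SE 0.05, adjusted p = 3.12e-14) without control replicate 3.

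Loxl2, which acts on collagen IV outside the cell, had the largest descending response of the family. In descending cultures it stood at 187, 203 and 253 normalized CPM in the controls and at 1014, 1023 and 1015 with TGFβ. In ascending cultures it stood at 212, 217 and 220 in the controls and at 844, 862 and 838 with TGFβ. The 6 control libraries of both sites thus lay within 187 to 253, and the treated libraries were separated by site. The log2 fold change was 1.96 (SE 0.03, adjusted p = 9.79e-18) in ascending cultures, which placed Loxl2 at rank 8 by p among 13917 genes tested. The descending change of Loxl2 was 2.24 (SE 0.15, adjusted p = 0.00156) with the 6 libraries and 2.39 (SE 0.05, adjusted p = 3.17e-25) without control replicate 3. The pseudogene Gm21451, which shares much of its sequence, stayed below 10 CPM in every library.

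Loxl3 showed the largest ascending response. It stood at 162, 146 and 153 normalized CPM in ascending controls and at 619, 641 and 631 with TGFβ, a log2 fold change of 2.03 (SE 0.04, adjusted p = 6.59e-17). At the descending site Loxl3 stood at 225, 221 and 164 in control replicates 1 to 3 and at 618, 592 and 636 with TGFβ. The treated libraries of both sites overlapped, whereas all 3 descending controls lay above all ascending controls. Control replicate 3, at 164, lay just above the highest of these, at 162. The descending log2 fold change was 1.59 (SE 0.16, adjusted p = 0.00406) with the 6 libraries and 1.47 (SE 0.05, adjusted p = 2.02e-20) without control replicate 3.

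Loxl4, the least abundant member, rose at both sites. It stood at 52.1, 52.0 and 50.9 normalized CPM in ascending controls and at 126, 131 and 137 with TGFβ, a log2 fold change of 1.34 (SE 0.04, adjusted p = 1.22e-13). At the descending site Loxl4 stood at 39.1, 39.6 and 26.3 in control replicates 1 to 3 and at 115, 122 and 124 with TGFβ. Every ascending control lay above every descending control, and no treated library overlapped a control. The descending log2 fold change was 1.78 (SE 0.19, adjusted p = 0.00521) with the 6 libraries and 1.62 (SE 0.06, adjusted p = 1.02e-19) without control replicate 3.

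**Figure D2:**
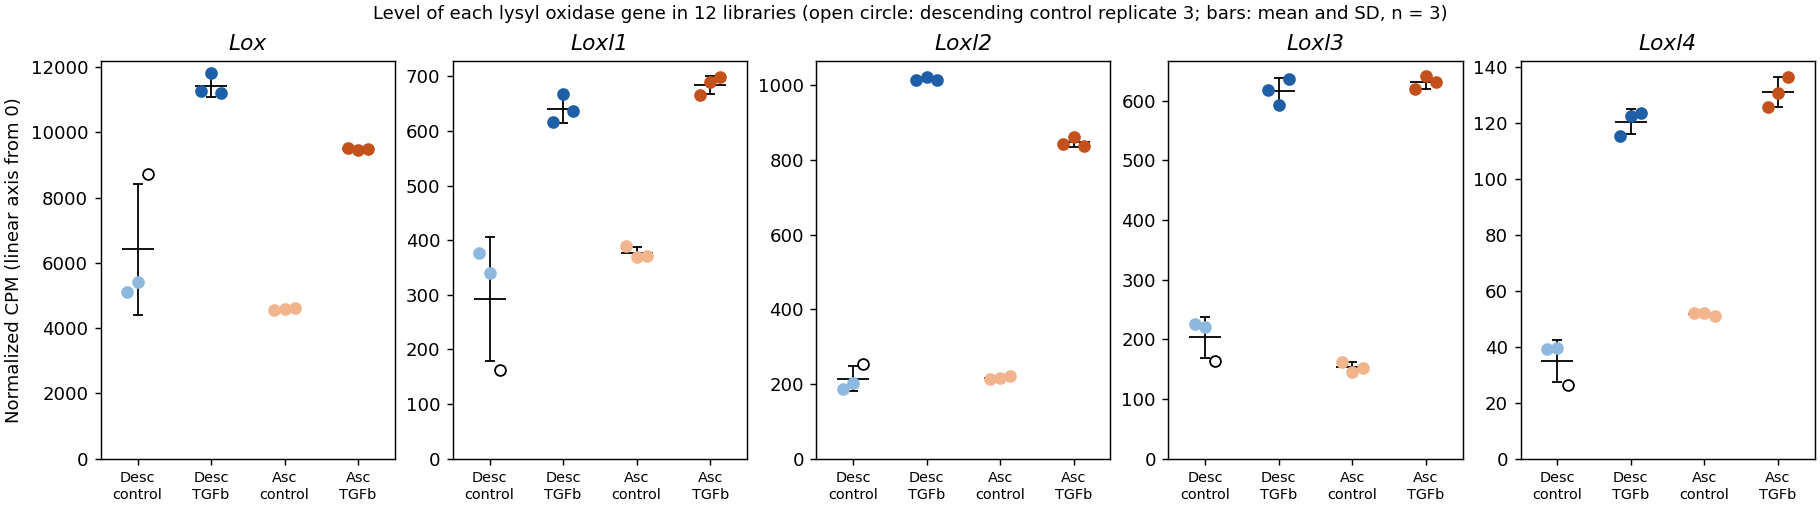
Level of each family member by library. Each panel is 1 gene, the vertical linear axis starts at 0 and gives normalized CPM, points are libraries, and bars give the mean and SD of 3. Every TGFβ library lies above every control of the same site for all 5 genes, and the open circle, descending control replicate 3, lies above its fellows for Lox and Loxl2 and below them for Loxl1, Loxl3 and Loxl4.

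**Figure D3:**
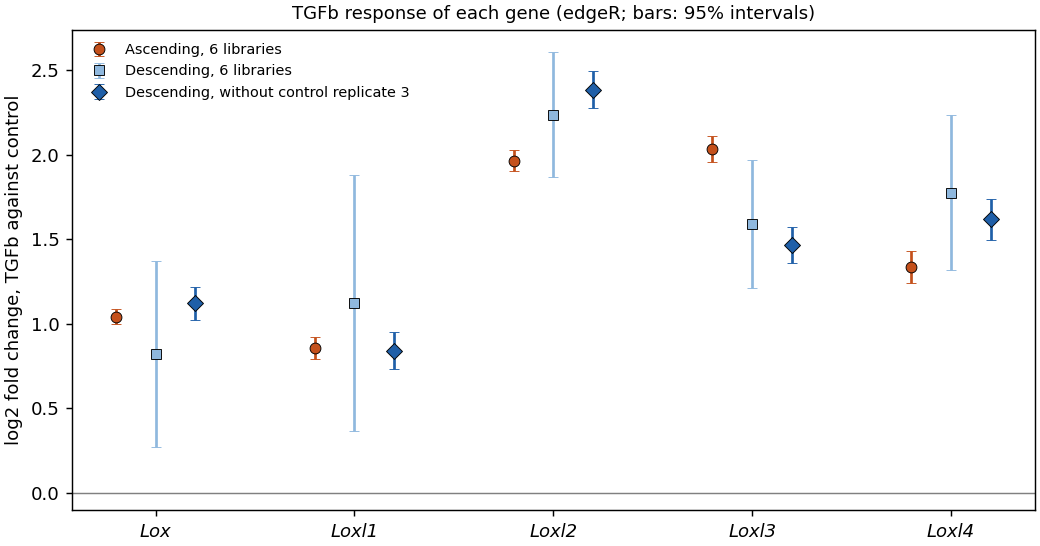
Response of each gene to TGFβ. The vertical axis gives the log2 fold change of TGFβ against control, with 95% intervals from edgeR, for ascending cultures (6 libraries), descending cultures (6 libraries) and descending cultures without control replicate 3 (5 libraries). The intervals with 6 descending libraries are the widest, and the ascending and 5-library descending intervals of Loxl2, Loxl3 and Loxl4 do not overlap.

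Untreated fibroblasts of the 2 sites were compared next. With the 6 libraries, none of the 5 genes differed between ascending and descending controls by edgeR, where 2.65% of all genes did. DESeq2 also called 0 of the 5. In edgeR's fit across all genes, 2 members had an unadjusted p under 0.05, Loxl3 at 0.0396 and Loxl4 at 0.0208, as had 12.8% of all genes. The log2 differences, positive where ascending was higher, were -0.48 for Lox, 0.37 for Loxl1, 0.02 for Loxl2, -0.40 for Loxl3 and 0.57 for Loxl4, with adjusted p-values from 0.248 to 0.957. Without descending control replicate 3, 4 of the 5 passed, where 31.6% of all genes did. Loxl4 was higher in ascending controls by 0.41 (SE 0.05, adjusted p = 6.21e-05) and Loxl2 by 0.16 (SE 0.05, adjusted p = 0.0154). Loxl3 was lower in ascending controls, at -0.53 (SE 0.05, adjusted p = 1.60e-06), and so was Lox, at -0.19 (SE 0.03, adjusted p = 0.000117). Loxl1 differed by 0.09, with a 95% interval of -0.01 to 0.19 (adjusted p = 0.187). These differences were small beside the responses to TGFβ: the largest, of Loxl3, was 1.44-fold. They rest on 2 descending control libraries.

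Under TGFβ, a comparison that does not use descending control replicate 3, 4 of the 5 genes differed between sites, where 36.3% of all genes did. Lox was lower in ascending than in descending cultures, at a log2 difference of -0.27 (SE 0.03, adjusted p = 6.55e-08), or 1.20-fold. Loxl2 was lower by a like amount, at -0.26 (SE 0.03, adjusted p = 3.04e-07). For both genes all 3 ascending libraries lay below all 3 descending ones. DESeq2 kept both calls (adjusted p = 2.67e-19 for Lox and 6.61e-18 for Loxl2), as did edgeR with each library left out. They were lost with all 12 libraries in 1 edgeR fit, which includes descending control replicate 3 (adjusted p = 0.571 for Lox and 0.187 for Loxl2). Loxl4 was higher in ascending cultures by 0.12 (SE 0.04, adjusted p = 0.0279) and Loxl1 by 0.10 (SE 0.04, adjusted p = 0.0369), and for Loxl1 the libraries overlapped between sites. Both calls were lost without descending TGFβ replicate 1 (adjusted p = 0.151 for Loxl4 and 0.181 for Loxl1), without ascending TGFβ replicate 2 (0.0705 and 0.113) and without ascending TGFβ replicate 3 (0.176 and 0.155). That of Loxl1 was also lost without descending TGFβ replicate 3 (0.102). Loxl3 differed by 0.04, with a 95% interval of -0.04 to 0.11 (adjusted p = 0.471).

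The difference between sites in the response to TGFβ was tested as an interaction over the 12 libraries, positive where the ascending response was the more positive. None of the 5 genes passed, where 0.806% of all genes did. DESeq2 called 0 of the 5 as well. The same 2 genes had an unadjusted p under 0.05 in edgeR's fit across all genes, Loxl3 at 0.0182 and Loxl4 at 0.0428, as had 10.0% of all genes. The log2 interaction was 0.22 for Lox, -0.27 for Loxl1, -0.28 for Loxl2, 0.44 for Loxl3 and -0.44 for Loxl4, with adjusted p-values from 0.350 to 0.735. Without descending control replicate 3, 3 of the 5 passed, where 13.5% of all genes did. Loxl3 responded more in ascending cultures, by 0.57 on the log2 scale (SE 0.06, adjusted p = 1.33e-07). Loxl2 responded less there, at -0.42 (SE 0.05, adjusted p = 3.09e-06), and so did Loxl4, at -0.28 (SE 0.07, adjusted p = 0.00841). This test shares its libraries with the comparisons above and is not independent of them. For Lox the interaction was -0.07, with a 95% interval of -0.16 to 0.02 (adjusted p = 0.319), and for Loxl1 it was 0.02, with an interval of -0.11 to 0.14 (adjusted p = 0.904). The intervals of Lox and Loxl1 thus included 0 in the 11 libraries, while the interactions of Loxl2 and Loxl3 had opposite signs.

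Ratios of 2 genes within a library do not depend on its scaling. The log2 ratio of Loxl2 to Loxl3 per kb was -0.50 and -0.35 in descending control replicates 1 and 2 and 0.39 in control replicate 3. With TGFβ it lay between 0.44 and 0.56 in descending cultures. In ascending cultures it lay between 0.16 and 0.34 in controls and between 0.18 and 0.21 with TGFβ. Descending control replicates 1 and 2 were therefore the only libraries with more Loxl3 than Loxl2 per kb, and the ascending groups overlapped. The level of 0 in this ratio depends on the lengths used, and its differences between libraries do not. The log2 ratio of Lox to Loxl2 lay between 4.57 and 4.60 in ascending controls and between 3.63 and 3.68 with TGFβ. At the descending site this ratio went from 4.95 and 4.92 in control replicates 1 and 2, and 5.28 in replicate 3, to between 3.64 and 3.71. The 6 treated libraries of both sites lay within 3.63 to 3.71, while the controls differed by site. The log2 ratio of elastin (Eln), the substrate of Lox and Loxl1 in elastic fibres, to Lox was -2.42 to -2.28 in ascending controls and -2.70 to -2.49 with TGFβ. In descending cultures it went from -6.01 and -6.28 in control replicates 1 and 2, and -7.19 in replicate 3, to between -3.61 and -3.46 with TGFβ. Every ascending library thus held more elastin transcript for each Lox transcript than any descending one.

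**Figure D4:**
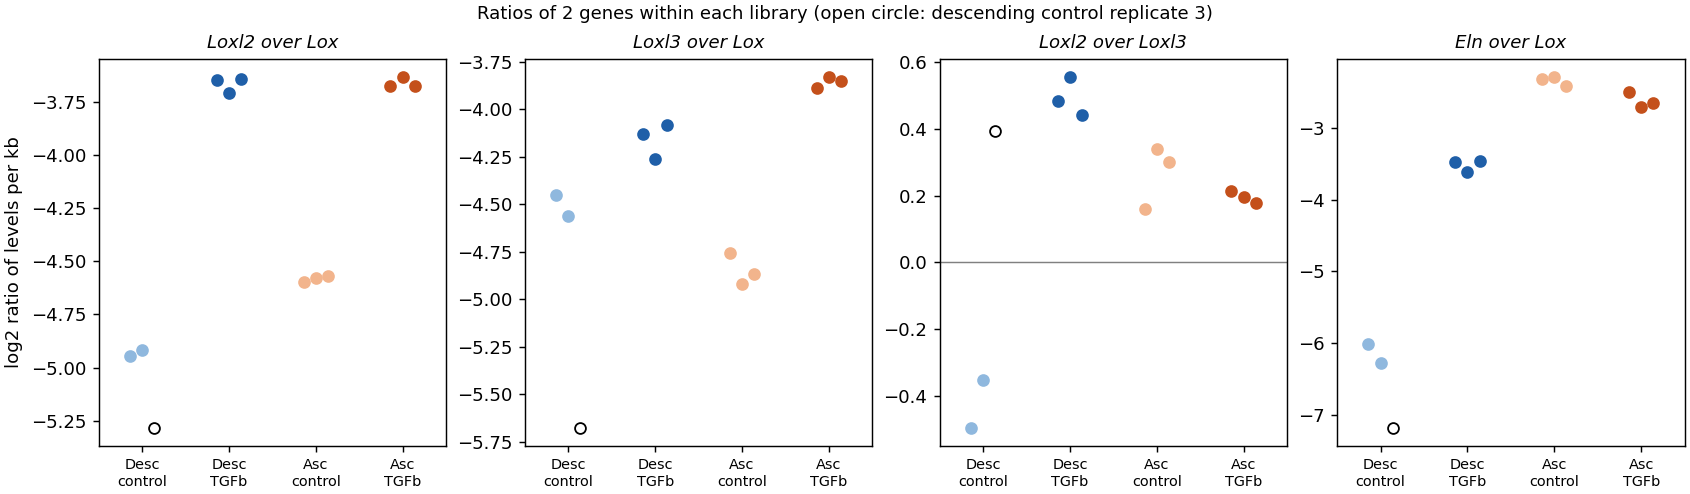
Ratios of levels within each library. The vertical axes give the log2 ratio of levels per kb for Loxl2 over Lox, Loxl3 over Lox, Loxl2 over Loxl3 and Eln over Lox, and each point is 1 library, the open circle being descending control replicate 3. Loxl2 over Lox lies higher with TGFβ, in the same range at both sites, and Eln against Lox differed between sites in both conditions.

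The substrates and partners of the family were then described by lists, in ascending cultures with 6 libraries and in descending cultures without control replicate 3 unless said otherwise. The median log2 fold change over all genes tested was -0.00 in ascending and -0.01 in descending cultures. Counts of each list are read against the shares of all genes that rose and fell: 28.2% and 27.6% in ascending cultures, 26.6% and 26.3% in descending cultures without control replicate 3, and 3.59% and 4.48% with the 6 descending libraries. Of 11 fibrillar collagen genes, the main collagen substrates, 6 rose and 3 fell in ascending cultures (median 0.09, all genes 28.2% and 27.6%), and 7 rose and 4 fell in descending cultures (median 0.70, all genes 26.6% and 26.3%). The 6 descending libraries gave 5 risen and 1 fallen (all genes 3.59% and 4.48%). Col1a1, the main chain of collagen I, rose by 0.97 (adjusted p = 1.20e-15) in ascending and by 1.19 (adjusted p = 1.65e-18) in descending cultures, changes near that of Lox. Col5a2 rose by 1.02 and 1.61, and Col11a1 by 1.73 and 1.84. With the 6 descending libraries these 3 genes kept their calls, at 1.11, 1.55 and 1.63. Col3a1, of collagen III, fell by 1.00 in ascending and by 0.26 in descending cultures, and its descending call was lost with the 6 libraries (-0.08, adjusted p = 0.831). Of 7 genes for elastin and collagen IV, 4 rose and 3 fell in ascending cultures (median 0.27, all genes 28.2% and 27.6%), and 6 rose and 0 fell in descending cultures (median 0.61, all genes 26.6% and 26.3%). Only Eln passed with the 6 descending libraries, where the median of this list was 0.76 and that of the fibrillar collagens 0.86.

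Elastin differed between sites more in the controls than with TGFβ. Eln stood at 1550, 1595 and 1468 normalized CPM in ascending controls and at 2874, 2465 and 2552 with TGFβ, a log2 fold change of 0.77 (adjusted p = 2.42e-10). In descending cultures it stood at 135, 118 and 101 in the controls and at 1722, 1642 and 1727 with TGFβ, a log2 fold change of 3.84 (adjusted p = 0.000489) with the 6 libraries and 3.75 (adjusted p = 4.75e-28) without control replicate 3. Its descending controls were low in all 3 libraries. All 7 genes of this list had a lower interaction without control replicate 3 (median -0.52, over all genes 0.01), where 7.40% of all genes did, and 1, Eln, with the 12 libraries. Of the 11 fibrillar collagen genes, 6 were lower and 0 higher in that 11-library interaction. With the 12 libraries 1 was lower and 0 higher, where 0.806% of all genes were called in either direction.

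Of 9 tested genes that process the proenzymes or place them in the matrix, 5 rose and 3 fell in ascending cultures (all genes 28.2% and 27.6%). In descending cultures 4 rose and 3 fell (all genes 26.6% and 26.3%), and 2 rose and 1 fell with the 6 libraries (all genes 3.59% and 4.48%). Bmp1, the proteinase that cleaves the propeptide from Lox, changed by 0.04 (adjusted p = 0.276) and -0.00 (adjusted p = 0.988). Its relative Tll1 rose by 1.60 (adjusted p = 1.19e-15) and 1.83 (adjusted p = 1.03e-20). Postn, a matricellular protein that binds Bmp1, went from 150, 162 and 149 normalized CPM in ascending controls to 665, 668 and 673 with TGFβ, a rise of 2.12 on the log2 scale. In descending cultures Postn stood at 420, 437 and 993 in control replicates 1 to 3 and at 560, 568 and 533 with TGFβ. Its descending log2 fold change was 0.37 without control replicate 3 and -0.17 (adjusted p = 0.817) with it, so that library decided the sign. Thbs1, which is known to activate latent TGFβ, rose by 1.07 and 0.77. Tll1 and Thbs1 kept their descending calls with the 6 libraries, at 1.89 and 0.75, where Bmp1 stood at 0.21 (adjusted p = 0.625).

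The elastic fibre scaffold, on which Lox and Loxl1 meet elastin, gave 9 risen and 4 fallen genes of 16 in ascending cultures (all genes 28.2% and 27.6%) and 10 risen and 5 fallen in descending cultures (all genes 26.6% and 26.3%). With the 6 libraries 3 rose and 3 fell (all genes 3.59% and 4.48%). Efemp2, the fibulin that brings Lox to elastin, changed by -0.03 (adjusted p = 0.545) in ascending cultures and fell by 0.16 (adjusted p = 0.00520) in descending ones. Fbln5, which does so for Loxl1, rose by 0.31 and 0.16. Mfap4 rose by 3.33 and 3.59 and Ltbp2 by 2.97 and 2.08, and Efemp1 fell by 1.91 and 1.64. With the 6 descending libraries Mfap4, Ltbp2 and Efemp1 kept their calls, at 2.80, 2.35 and -1.89, while Efemp2, at 0.09 (adjusted p = 0.870), and Fbln5, at 0.42 (adjusted p = 0.415), did not pass. Mfap4 and Ltbp2 share 2.04% and 8.58% of their 50-base stretches with other genes. Of 11 genes of copper supply tested, 3 rose and 4 fell in ascending cultures (all genes 28.2% and 27.6%), and 4 rose and 3 fell in descending ones (all genes 26.6% and 26.3%). The median of the copper list was 0.21 with the 6 descending libraries, and the smallest adjusted p, of Mt1, was 0.0929. Slc31a1, the copper importer, rose by 0.66 and 0.51, whereas Atp7a, the pump that loads copper into secreted enzymes, fell by 0.31 (adjusted p = 0.00175) in ascending cultures and changed by -0.07 (adjusted p = 0.533) in descending ones. With the 6 descending libraries Slc31a1 stood at 0.78 (adjusted p = 0.182) and Atp7a at -0.27 (adjusted p = 0.456).

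Of 19 tested enzymes and chaperones that modify collagen before it is crosslinked, 16 rose and 2 fell in ascending cultures (median 0.57, all genes 28.2% and 27.6%). In descending cultures 15 rose and 2 fell (median 0.61, all genes 26.6% and 26.3%), against 5 and 1 with the 6 libraries (all genes 3.59% and 4.48%). Fkbp10, a chaperone needed for hydroxylation of the collagen ends that lysyl oxidases crosslink, rose by 0.96 and 1.09. Plod2, the enzyme that hydroxylates those ends, rose by 0.45 and 0.66. Serpinh1, the collagen chaperone Hsp47, rose by 0.60 and 0.82. Tgm2, a transglutaminase that makes another kind of crosslink, rose by 0.97 in ascending and 3.17 in descending cultures, and 18.7% of its stretches are shared with other genes. With the 6 descending libraries Tgm2 kept its call, at 3.52, and Fkbp10 (1.43, adjusted p = 0.0904), Plod2 (0.45, adjusted p = 0.208) and Serpinh1 (1.16, adjusted p = 0.135) lost theirs. Plod2 was named for its function after its values were seen. Of the other copper amine oxidases, Aoc3 fell by 1.24 and 1.12 (and by 0.97 with the 6 descending libraries), Aoc2 changed by -0.14 (adjusted p = 0.606) and 0.15 (adjusted p = 0.636), and Aoc1 had too few counts to be tested.

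**Figure D5:**
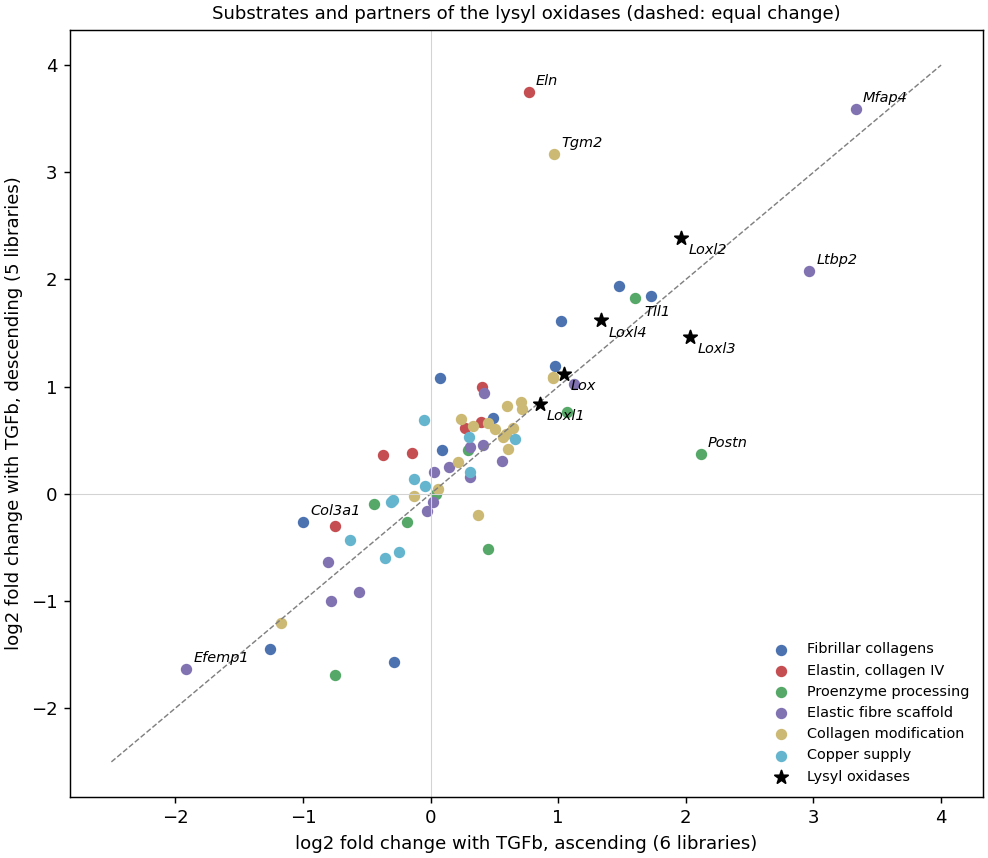
Substrates and partners of the lysyl oxidases. The horizontal axis gives the log2 fold change with TGFβ in ascending cultures (6 libraries) and the vertical axis that in descending cultures without control replicate 3 (5 libraries), for the 5 family members (stars) and 72 of the 73 genes of 6 lists tested in both comparisons (points), with Col24a1 left out because every library of at least 1 group was at or under 3 counts. The 5 stars lie in the upper right, Eln and Tgm2 lie far above the dashed line of equal change, and Postn and Ltbp2 lie below it.

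Of 8 genes known to respond to TGFβ, 7 rose and 1 fell at each site, with median log2 fold changes of 1.58 in ascending cultures (all genes 28.2% and 27.6%) and 1.47 in descending ones (all genes 26.6% and 26.3%). With the 6 descending libraries 5 rose and 1 fell (all genes 3.59% and 4.48%). Acta2, the smooth muscle actin of activated fibroblasts, rose by 1.72 and 1.76, while Tgfbi fell by 1.62 and 2.70, and both kept their calls with the 6 descending libraries. Marker sums of other cells moved with treatment and site. The smooth muscle sum was 137 to 150 normalized CPM in ascending controls, 181 to 193 with TGFβ, 195 to 244 in descending controls and 318 to 343 with TGFβ, with Myocd at 15 counts or fewer. The endothelial sum, most of it Tek, was 24.4 to 27.9 and 4.70 to 5.73 in ascending and 23.9 to 26.8 and 9.50 to 11.2 in descending cultures. The leukocyte sum of Ptprc, Cd68, Adgre1, Csf1r and Lyz2 was 51.1 to 341 in ascending controls and at most 45.0 in the other groups. The adipocyte sum was 22.2 to 28.6 normalized CPM in descending controls and 9.74 to 18.3 with TGFβ, above the 0.913 to 4.95 of ascending controls and the 0.0473 to 0.575 of ascending cultures with TGFβ. The mesothelial sum was 32.9 to 42.7 in ascending controls, 19.6 to 26.5 with TGFβ, 6.90 to 13.1 in descending controls and 12.3 to 13.9 with TGFβ, with Wt1 at 0 or 1 count. The Schwann cell sum was 21.4 to 25.9 and 14.9 to 15.7 in ascending and 14.8 to 24.8 and 10.8 to 12.1 in descending cultures. The cardiomyocyte sum of Tnnt2, Actc1 and Myh6 was 5.85 to 7.75 normalized CPM in ascending controls, 3.27 to 3.70 with TGFβ, 0.389 to 1.39 in descending controls and 1.03 to 1.43 with TGFβ. Tnnt2 reached at most 159 counts, Actc1 at most 11 and Myh6 was at 0 in every library. Their part in the levels of the 5 genes was not tested.

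Levels of the 5 genes varied together across the libraries. Over the 11 libraries without descending control replicate 3, Pearson's r between log2 levels of 2 members ran from 0.927 for Lox and Loxl4 to 0.988 for Loxl1 and Loxl4. With all 12 it was lowest for Lox and Loxl1, at 0.533. These libraries form treated and untreated clusters, so r describes mainly that split. Among 14632 genes, those most like each member by r over the 12 libraries were Zfp462 (0.995), Picalm (0.993) and Canx (0.992) for Lox and Fkbp10 (0.996), Cdr2 (0.996) and Snd1 (0.994) for Loxl1. For Loxl2 they were Dpysl3 (0.996), Asns (0.996) and Slc41a2 (0.993), for Loxl3 Klc2 (0.995), Gsto1 (0.993) and Necap1 (0.992), and for Loxl4 Zdhhc2 (0.997), Synpo (0.996) and Nuak2 (0.996). Over the 11 libraries without descending control replicate 3, r for these 15 pairs ran from 0.987 to 0.997.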

How the data were processed

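RNA of 12 cultures, 3 per group, was measured by sequencing. The authors deposited raw read counts per gene symbol, one column per library, without normalization, and the submitters' processing notes name FastQC, STAR, featureCounts, DESeq2 and the build mm10, with no versions. Groups followed the sample labels. The members and all gene lists were chosen with earlier results of these data known.

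Counts were tested in R 4.3.3 with edgeR 4.0.16 (TMM, filterByExpr at its defaults of 10 counts and 15 in total, quasi-likelihood F-test, Benjamini-Hochberg adjustment over all genes tested, adjusted p under 0.05). The 4 comparisons of 2 groups used those groups only, and the interaction used all 4. All genes were fitted, and the scripts were tested on simulated counts. Standard errors were taken from the F statistic, and 95% intervals from edgeR's degrees of freedom. Totals were 16250126 to 23892943 counts, and a floor of 3 counts equals 0.117 to 0.207 normalized CPM, which covers counting error only. Exon lengths, positions and shared 50-base stretches came from GENCODE vM21 (53753 of 54352 symbols matched), computed with Python 3.11.15 and pandas 2.3.3. Figures were drawn with matplotlib 3.10.9.

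Beside the 5 members, the genes named were taken from those with the smallest adjusted p of each list in the interaction, in the ascending response or in the site difference under TGFβ (up to 4 each), with Eln, Col1a1, Col3a1, Bmp1, Efemp2, Fbln5 and Atp7a always included. Of the genes so picked, the text gives those with the best known roles toward the enzymes, a choice made after their values were seen. The alternatives were DESeq2 1.42.0, its size factors, other filters on low counts, a replicate block, all 12 libraries in 1 fit, each library left out and other gene lengths. One further gene was left out of the lists and is not reported here.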

Additional observations from a re-analysis of the deposited data

Results flagged for a closer look

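Of the 120 listed genes tested beside the family, markers included, 6 had a response to TGFβ that differed between sites in edgeR's interaction test over the 12 libraries, where 0.806% of all genes had one. None of the 5 lysyl oxidases did. The interaction of Eln was -3.07 on the log2 scale (adjusted p = 1.42e-05), and it was -2.98 without descending control replicate 3. Tgm2 gave -2.55 (adjusted p = 0.0255) and -2.20 without that library, where it stood at 5.00 normalized CPM against 15.6 in both fellow cultures. Postn gave 2.28 (adjusted p = 0.0228) and 1.75. Col5a2, a collagen V chain, gave -0.53 (adjusted p = 0.0339) and -0.58. P4ha1, a subunit of prolyl 4-hydroxylase, gave -0.49 (adjusted p = 0.0316) and -0.46. Tek, an endothelial marker, gave -1.06 (adjusted p = 0.0228) and -1.05, and stood at 23.6 to 25.7 normalized CPM in ascending controls, 3.60 to 4.73 with TGFβ, 23.8 to 24.9 in descending controls and 7.71 to 9.27 with TGFβ. The direction of each was kept without descending control replicate 3.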

How the results depend on the processing

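Over the 25 log2 fold changes of the 5 members in 5 comparisons, DESeq2's size factors, no filter on low counts and a stricter filter (at least 10 counts in every library) each left all 25 on their side of the threshold and with their sign. The least abundant member, Loxl4, had 381 counts or more in every library. Descending control comparisons with control replicate 3 rest on 3 cultures of which 1 stood apart, and those without it on 2.

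The TGFβ response in ascending cultures gave 7767 genes, and 2338 with all 12 libraries in 1 fit. In descending cultures it gave 1115 genes, against 2242 with DESeq2, 3570 with all 12 libraries in 1 fit and 213 to 7576 with each library left out, the highest without control replicate 3 and 213 to 474 without any other. Of the family, 3 members were called higher there, against 5 with DESeq2, 5 with all 12 libraries and 3 to 5 with each library left out, 5 only without control replicate 3. The site difference in controls gave 374 genes, against 1034 with DESeq2, 1545 with all 12 libraries and 33 to 4631 with each library left out, the highest without descending control replicate 3. Of the family, 0 were higher and 0 lower, against 1 and 1 with all 12 libraries and 0 to 2 in each direction with each library left out. The site difference under TGFβ gave 4963 genes and 1106 with all 12 libraries, where 0 members were higher and 0 lower in place of 2 and 2. DESeq2 kept 1 of the 2 higher members (Loxl4 had an adjusted p of 0.0770), and leaving out each library kept 0 to 2 of these. Both lower members, Lox and Loxl2, were kept by DESeq2 and with each library left out. The interaction gave 118 genes, against 419 with DESeq2, 56 with no filter and 25 to 2022 with each library left out (2022 without descending control replicate 3), with 0 to 1 members higher and 0 to 2 lower. The cause of these differences was not tested, other than by leaving out libraries.

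Signs changed in 3 results. The site difference of Loxl2 in controls, 0.02, was -0.069 to 0.16 with each library left out and -0.069 and -0.021 without descending control replicates 1 and 2. The interaction of Lox, 0.22, was -0.073 to 0.36 and that of Loxl1, -0.27, was -0.48 to 0.018, with the sign changed in both only without descending control replicate 3.

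Whether replicate numbers pair the samples is not given by the labels and was not settled here. The deviations of same-numbered libraries from their group means correlated at -0.03 to 0.09, and those of libraries with unlike numbers at -0.09 to 0.07. With deviations from means of 3 libraries, a weak pairing could go unseen. With the replicate number as a block, the descending TGFβ response gave 95 genes and 1 member (Loxl3 at an adjusted p of 0.0618 and Loxl4 at 0.0648), the site difference in controls 0 genes and the interaction 50. Another setting divided all counts by the length of unshared sequence, which was shorter for Loxl2 and Loxl3. The share of Lox was then 74.7% in ascending and 77.1% in descending cultures with TGFβ.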

Other observations

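Of 8 transcription factors of epithelial-mesenchymal transition and hypoxia, processes in which Lox and Loxl2 are known to take part, 2 rose and 5 fell with TGFβ in ascending cultures (median log2 fold change -0.38), where 28.2% of all genes rose and 27.6% fell. In descending cultures 1 rose and 5 fell without control replicate 3 (median -0.49), where 26.6% of all genes rose and 26.3% fell. With the 6 libraries 0 rose and 2 fell (median -0.52), where 3.59% of all genes rose and 4.48% fell. Epas1, the hypoxia factor HIF-2α, fell by 3.67 (adjusted p = 5.07e-18) in ascending and by 3.57 (adjusted p = 7.47e-25) in descending cultures. Snai2 fell by 1.11 and 2.10, while Snai1, whose product binds Loxl2, rose by 0.53 in ascending cultures and changed by 0.04 (adjusted p = 0.563) in descending ones. With the 6 descending libraries Epas1 stood at -3.79, Snai2 at -3.28 (adjusted p = 0.0460) and Snai1 at 0.30 (adjusted p = 0.567). In descending control replicate 3, the library with 11.02% mitochondrial reads and 13031 genes detected, Snai2, Zeb1, Zeb2, Hif1a and Epas1 stood above both fellow cultures, and Snai1, Twist1 and Twist2 stood below both.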
